A study of Mus musculus with 6 samples.

Results

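The 6 genes described here are H2-Aa, H2-Ab1, H2-Eb1 and H2-Eb2, which encode chains of the mouse MHC class II molecules, Cd74, which encodes the invariant chain, and Ciita, which encodes the class II transactivator. They were taken by their symbols from the 32285 genes of the count tables, and all 6 were found. The data are 6 libraries of 10x Genomics 5' single-cell RNA sequencing, 1 library per mouse, of splenic cells sorted as CD3+ CD4+ and negative for B220 and NK1.1. The spleens came from 3 mice of the H2-O KO and 3 of the H2-O WT genotype, all of the C57BL6/J strain, 8 weeks old by the labels and untreated. H2-O is the nonclassical class II molecule encoded by H2-Oa and H2-Ob, and the knockout was bred in the study's own colony. The question for these 6 genes is in which cells of a CD4 T cell sort their RNA was found, and whether that differed between the genotypes.

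MHC class II molecules are pairs of an alpha and a beta chain that carry peptides to the surface of B cells, dendritic cells and macrophages, where CD4 T cells read them. In the mouse, H2-Aa and H2-Ab1 encode the alpha and beta chains of I-A, H2-Eb1 encodes the beta chain of I-E, and H2-Eb2 a related beta chain. The invariant chain fills the groove of a newly made molecule and guides it to the compartment where peptides are loaded with the help of H2-DM and H2-O. CIITA binds no DNA itself but joins the factors on the X and Y boxes of the class II promoters, and mouse CD4 T cells are known for making little or no class II of their own.

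3 of the 6 members had a promoter in the RefSeq table (GRCm38.p6), and the stretch with both boxes is printed for each because it is the sequence that the class II genes share. A search was made for GCAAC, taken as the core of the X box. It had to be followed on the same strand by TGATTGG, the Y box with its inverted CCAAT. The Y box had to lie no more than 40 bases further on from start to start. The capitals mark these motifs, and each sequence is written 5′ to 3′ on the strand of its gene.
H2-Aa, chr17:34287837-34287934, minus strand: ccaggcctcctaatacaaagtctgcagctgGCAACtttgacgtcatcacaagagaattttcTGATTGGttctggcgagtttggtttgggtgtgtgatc
H2-Eb1, chr17:34305746-34305842, plus strand: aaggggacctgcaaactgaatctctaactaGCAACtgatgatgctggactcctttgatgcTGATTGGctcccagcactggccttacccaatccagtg
H2-Eb2, chr17:34325513-34325609, plus strand: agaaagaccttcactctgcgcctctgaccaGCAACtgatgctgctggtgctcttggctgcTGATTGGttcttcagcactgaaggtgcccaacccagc
The motifs started 31 bases apart in H2-Aa and 30 bases apart in H2-Eb1 and H2-Eb2. The Y box started 50 bases before the transcription start of H2-Aa, 61 bases before that of H2-Eb1 and 102 bases before that of H2-Eb2. On either strand, GCAAC was in 35.2% and TGATTGG in 7.82% of all 32851 promoters of 300 bases, and the pair was in 0.301% of them. H2-Oa and H2-Ob, of the antigen presentation list described further on, also held the pair. A match describes the letters only and is not a measured binding site.

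In the GRCm38 annotation, H2-Ab1 lies on chromosome 17 from 34257689 to 34269419 on the plus strand, H2-Aa from 34282744 to 34287823 on the minus strand, H2-Eb1 from 34305867 to 34316674 and H2-Eb2 from 34325665 to 34341412, both on the plus strand. Ciita lies on chromosome 16 from 10480059 to 10528418.

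Kept cells had 200 or more genes, no more than 12000 UMIs (tags that each mark 1 RNA molecule) and no more than 5% mitochondrial UMIs. They numbered 17746 in the H2-O KO mice and 11992 in the H2-O WT mice. The called cells of a library held 9973193 to 40237962 UMIs. The share of kept cells with less than 10% ribosomal protein UMIs was 3.38% to 16.9% in the H2-O KO mice and 22.2% to 47.9% in the H2-O WT mice, so this share moved with genotype. Median UMIs per kept cell overlapped, at 4730.5, 4826.5 and 3809 in the H2-O KO mice and 2097, 5074 and 2163 in the H2-O WT mice. Among the called cells, 740 barcodes occurred in more than 1 library, and 3 of the 106 Cd79a+ cells defined below carried such a barcode. H2-Oa, the targeted gene, stood at 22.1, 64.5 and 26.5 CPM (UMIs scaled so that every sum has the same total) in the Cd79a+ cells of H2-O KO libraries 1 to 3, against 347, 228 and 480 CPM in those of H2-O WT replicates 1 to 3, which matched the labels. In the other T cells it did not separate the genotypes, at 3.39 to 4.68 CPM in the H2-O KO mice and 4.21 to 5.56 CPM in the H2-O WT mice.

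The kept cells were split by raw UMIs of genes outside the group. Cd79a+ cells held at least 2 UMIs of Cd79a, a subunit of the B cell receptor, and C1qb+ cells at least 2 UMIs of C1qb, a complement gene of macrophages. T cells held no UMI of either and at least 1 UMI of Cd3d, Cd3e, Cd3g, Trac, Trbc1, Trbc2 or Cd4, and were called Foxp3+ T cells or other T cells by Foxp3, the defining transcription factor of regulatory T cells (Tregs). There were 106 Cd79a+ cells, 125 C1qb+ cells, 2559 Foxp3+ T cells and 25731 other T cells. A further 258 cells held 1 UMI of Cd79a or C1qb. The last 959, called cells with no marker, held no UMI of Cd79a, C1qb or a T cell marker, whatever their Foxp3 count. Of 11 B cell markers, 11 were found in the Cd79a+ cells, at a summed 8880 to 12168 CPM per library, and none of 10 red pulp macrophage markers was found there. All 10 macrophage markers were found in the C1qb+ cells, but the T cell markers also reached 1333 to 3426 CPM there, and 52 of the 125 cells held 2 or more T cell marker UMIs. The C1qb+ class therefore holds T cell RNA beside macrophage RNA.

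Of the 4 classes, the Cd79a+ cells carried the highest mean level of each of the 6 members. H2-Aa stood at 5538, 4078 and 3955 CPM in the H2-O KO mice and at 4787, 3893 and 4651 CPM in the H2-O WT mice. Cd74 stood at 24615, 18036 and 19791 CPM in the H2-O KO mice and at 20950, 17231 and 20418 CPM in the H2-O WT mice. The genotypes overlapped for both genes. H2-Ab1 ranged from 1526 to 2928 CPM and H2-Eb1 from 2646 to 3554 CPM over the 6 libraries. Nearly every Cd79a+ cell carried this RNA, since 103 of 106 held a UMI of Cd74 and 103 of 106 a UMI of H2-Aa, H2-Ab1 or H2-Eb1, called the 3 chains from here on, with a median of 92 Cd74 UMIs and 41 chain UMIs per cell. H2-Eb2 (48.4 to 139 CPM, 45 UMIs in all) and Ciita (53.1 to 486 CPM, 53 UMIs in all) were found in every Cd79a+ library, from few molecules. The highest Ciita value came from 7 UMIs in the 4 Cd79a+ cells of H2-O WT replicate 1.

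In C1qb+ cells, H2-Aa stood at 852, 218 and 205 CPM in the H2-O KO mice and at 242, 1343 and 309 CPM in the H2-O WT mice. Cd74 stood at 2381, 1127 and 1318 CPM in the H2-O KO mice and at 1758, 4712 and 2581 CPM in the H2-O WT mice. Replicate 1 of H2-O KO and replicate 2 of H2-O WT were the highest of their groups for both genes. Of the 363 chain UMIs of this class, 55.4% lay in 5 cells with 10 or more. These were 2 cells of H2-O KO replicate 1 and 3 cells of H2-O WT replicate 2. Of the 125 cells, 94 held a Cd74 UMI but 70 a chain UMI, and the medians were 2 and 1 UMIs. Without the 52 cells that held 2 or more T cell marker UMIs, the mean over the 6 libraries went from 528 to 1927 CPM for H2-Aa (336 to 4902 CPM over libraries) and from 2313 to 7311 CPM for Cd74 (2577 to 14208 CPM). H2-Eb2 was found with 2 UMIs, both in H2-O KO replicate 1. Ciita was found in no C1qb+ cell, where a count of 0 allows up to 40.6 to 182 CPM per library.

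T cells fell far below both classes for the 3 chains. In Foxp3+ T cells, H2-Aa was counted with 4, 0 and 11 UMIs in H2-O KO replicates 1 to 3 and with 0, 7 and 8 UMIs in H2-O WT replicates 1 to 3. These are levels of 0 to 6.01 CPM, and the 2 libraries with no H2-Aa UMI allow up to 1.45 and 4.63 CPM. Of the 2559 Foxp3+ T cells, 51 (1.99%) held a chain UMI and the highest cell held 4. H2-Eb2 was found in none of them, which allows 0.864 to 4.63 CPM per library, and Ciita with 2 UMIs.

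In other T cells, H2-Aa stood at 3.63, 3.51 and 12.5 CPM in the H2-O KO mice and at 3.19, 0.903 and 11.3 CPM in the H2-O WT mice. The third replicate was the highest of both groups. The molecules were not spread over the class. Of 25731 cells, 319 (1.24%) held a chain UMI and 265 of these held 1, while 14 cells with 10 or more held 71.1% of all 1461 chain UMIs. Those 14 cells, with 13 to 234 chain UMIs each, had a median of 5892.5 UMIs in all. At least 5 UMIs of conventional dendritic cell markers were found in 8 of them and at least 5 UMIs of T cell markers in 8, but the dendritic list also summed to 428 to 613 CPM per library over all other T cells. Of 11 B cell markers 4 were found, 10 of the 14 cells held a UMI of them and 2 held 5 or more. Cd79b was found in 2 cells and Ms4a1, which encodes CD20 of B cells, in none, while 8 held Bst2, 6 Itgax and 6 Ccr7. Flt3 and Fscn1 of the dendritic list were found in 3 cells each, and Cd3e in 10. Siglech was found in none, and 1 cell held 5 or more UMIs of plasmacytoid dendritic cell markers. The 14 cells lay in H2-O KO replicates 1 (6 cells), 2 (3 cells) and 3 (3 cells) and in H2-O WT replicate 3 (2 cells). Cells with more than 1 cell's RNA were removed only where they passed 12000 UMIs, and whether these 14 were such cells was not tested. In T cells with under 5 chain UMIs, H2-Aa in other T cells stood at 0.823 ± 0.394 CPM in the H2-O KO mice and 2.12 ± 1.06 CPM in the H2-O WT mice (SD, n = 3 each). Before this cut the means were 6.55 and 5.12 CPM. No test is given, since the cells were cut by this level. In the exact two-sided permutation tests used further on, 3 mice against 3 give 20 assignments and the smallest possible p is 0.1.

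Cd74 followed another pattern. In Foxp3+ T cells it stood at 103, 103 and 171 CPM in the H2-O KO mice and at 144, 91.3 and 149 CPM in the H2-O WT mice, so the genotypes overlapped. Its level in other T cells was 20.1, 14.8 and 51.2 CPM in the H2-O KO mice and at 16.0, 9.49 and 51.9 CPM in the H2-O WT mice. Every Foxp3+ T cell library lay above every library of other T cells. The order of the Cd74 level was thus Cd79a+ cells, C1qb+ cells, Foxp3+ T cells and other T cells, with no overlap between neighbors in that order. For H2-Aa the first 2 steps did not overlap either, but Foxp3+ T cells and other T cells did. Where Cd79a+ and C1qb+ cells with 2 or more T cell marker UMIs were left out, the H2-Aa levels of both classes overlapped, at 4161 to 5675 CPM and 336 to 4902 CPM.

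**Figure D1:**
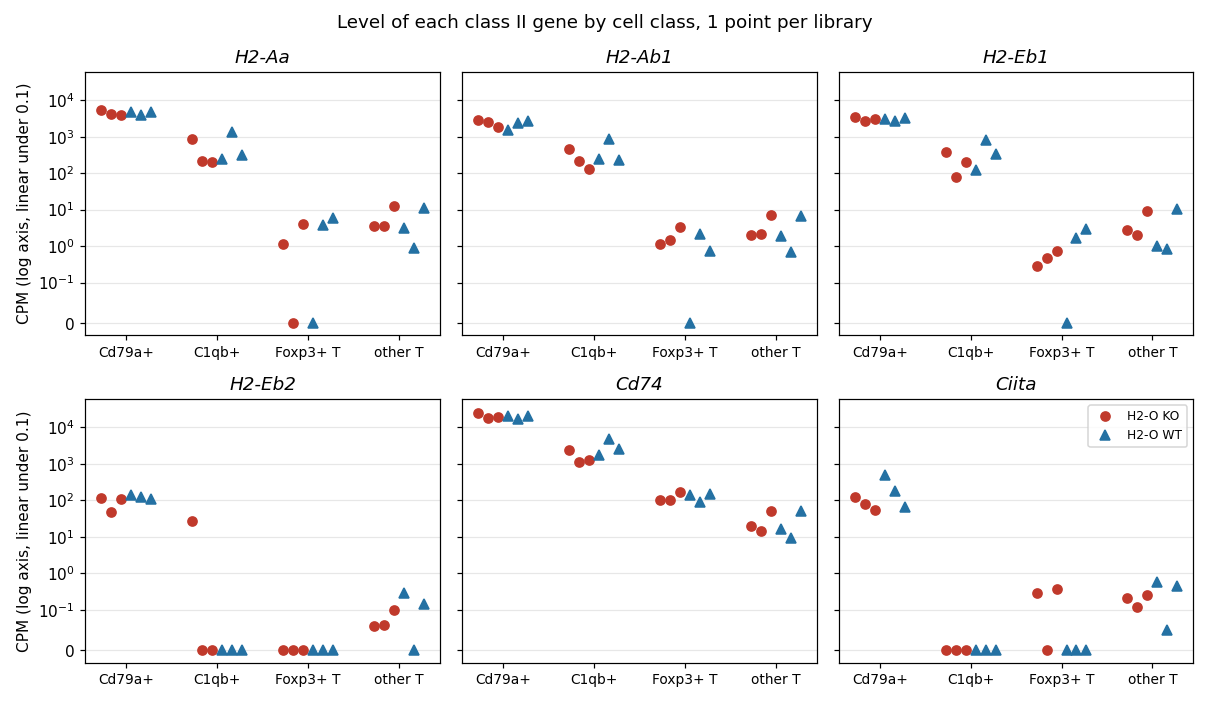
Level of each of the 6 genes in CPM (log axis that is linear under 0.1) in Cd79a+, C1qb+, Foxp3+ T and other T cells, with 1 point per library (circles H2-O KO, triangles H2-O WT). Cd74 stands at 91.3 to 171 CPM in Foxp3+ T cells, above all other T cell libraries, whereas H2-Aa is at 0 to 6.01 CPM there and overlaps with other T cells.

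The Foxp3+ T and other T sums of the same libraries were compared over all genes with edgeR's quasi-likelihood test, with the library as a block and Benjamini-Hochberg adjustment. Of the members tested, 4 of 4 were called, against a background of 40.1% of all genes tested. Cd74 was higher in Foxp3+ T cells with a log2 fold change of 2.18 (SE 0.15, edgeR adjusted p = 5.6e-11), in 6 of 6 libraries. Among T cells with under 5 chain UMIs the value was 3.13, but this cut took out 25 other T cells and no Foxp3+ T cell. It lowered the Cd74 UMIs of other T cells from 2950 to 1407, and so raises this value. H2-Aa fell by 1.34 (SE 0.38, adjusted p = 0.0066), H2-Ab1 by 1.11 (SE 0.38, adjusted p = 0.025) and H2-Eb1 by 2.35 (SE 0.42, adjusted p = 8.9e-05) on the log2 scale. The falls of H2-Aa and H2-Ab1 were lost without H2-O KO replicate 3, where the adjusted p of edgeR was 0.085 and 0.14, and that of H2-Ab1 also without H2-O WT replicate 3 (adjusted p = 0.10). No chain differed in T cells without any UMI of B cell, macrophage and dendritic markers other than Ighm, where the log2 fold change of H2-Aa was 0.22 (adjusted p = 0.73). The falls also rest on 25 of the 25731 other T cells, those with 5 or more chain UMIs, which held 1123 of the 1461 chain UMIs. Without them the mean level was 2.51 CPM in Foxp3+ T cells and 1.47 CPM in other T cells for H2-Aa, 1.48 and 1.00 CPM for H2-Ab1 and 1.03 and 1.12 CPM for H2-Eb1, given with no test since the cells were cut by this level. H2-Eb2 and Ciita had too few UMIs to be tested.

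Since cells differ in depth, each T cell was also thinned to 1500 UMIs. A Cd74 UMI was then found in 11.5%, 11.7% and 15.7% of Foxp3+ T cells in the H2-O KO mice and in 12.1%, 8.43% and 11.1% in the H2-O WT mice. In other T cells it was found in 1.18%, 1.16% and 1.95% of cells in the H2-O KO mice and in 1.52%, 0.979% and 3.07% in the H2-O WT mice. All 6 Foxp3+ T cell values lay above all 6 values of other T cells. A chain UMI was found in 0% to 2.22% of thinned Foxp3+ T cells and 0.238% to 1.08% of other T cells, and these ranges overlapped. Without thinning, a Cd74 UMI was found in 16.2% to 26.2% of Foxp3+ T cells and 3.17% to 5.77% of other T cells. The thinning left out 69 Foxp3+ T cells and 1015 other T cells with fewer UMIs in H2-O KO, and 66 and 1729 in the H2-O WT mice.

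The mean share was higher in cells with all 3 of the other Treg markers than in cells with none. Il2ra (CD25, a chain of the interleukin-2 receptor), Ikzf2 (Helios, a transcription factor) and Ctla4 (an inhibitory receptor) were counted as found or not found. Among Foxp3+ T cells with none of them, 4.07% ± 2.50 held a Cd74 UMI after thinning (SD, n = 6 libraries). With 1, 2 and all 3 markers found the values were 5.94% ± 5.27, 14.8% ± 3.08 and 19.3% ± 4.32. From none to 1 marker the share fell in H2-O KO replicate 2 and in H2-O WT replicates 1 and 3. Among other T cells, in which no Foxp3 UMI was found, it was 1.44% ± 0.816 with none of the markers and 7.24% ± 4.81 with all 3, from 241 cells. The range over libraries in that last group was 0% to 14.3%, from few cells per library, and the part of counting error in it was not tested. Foxp3+ T cells with none and with all 3 markers did not overlap between libraries, at 1.59% to 8.70% against 13.4% to 23.3%. Median depth was 4502 UMIs in the first and 5087.5 UMIs in the second set of cells before thinning.

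**Figure D2:**
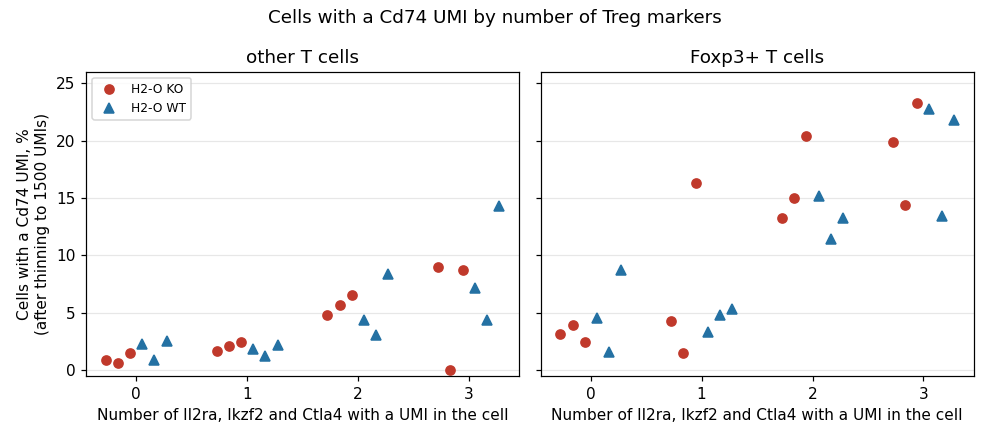
Percent of T cells with a Cd74 UMI after thinning to 1500 UMIs (vertical axis) by the number of Il2ra, Ikzf2 and Ctla4 found in the cell (horizontal axis), for other T cells (left) and Foxp3+ T cells (right), 1 point per library (circles H2-O KO, triangles H2-O WT). In Foxp3+ T cells the values run from 1.59% to 8.70% with none of the markers to 13.4% to 23.3% with all 3.

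Foxp3+ T cells with 2 or more Cd74 UMIs were then compared with those without any, in edgeR with the library as a block, a split chosen after the counts were seen. There were 301 such cells, 17 to 94 per library, against 2008, and they were deeper, with a median of 5619 against 4224 UMIs. Of 6399 genes tested, 12.9% were called higher and 10.3% lower. Il1r2, a decoy receptor of interleukin-1, was higher by 3.33 on the log2 scale (SE 0.25, adjusted p = 4.7e-12) and Ccr8, a chemokine receptor, by 2.81. Klrg1, a surface marker of differentiated T cells, was higher by 2.50, and the cytokine genes Ebi3, Il10 and Areg by 2.61, 2.42 and 1.79. The receptors Tnfrsf9 and Tnfrsf4 were higher by 2.25 and 1.88 and the transcription factors Prdm1 and Batf by 1.77 and 1.65. Igkc, of B cells, was higher by 1.84. Ccr7, the receptor that guides T cells into lymph nodes, fell by 1.84 on the log2 scale, and the transcription factor genes Klf2, Satb1 and Bach2 fell by 1.79, 1.88 and 1.63. Foxp3 itself differed by 0.12 (adjusted p = 0.37) and Il2ra by -0.29 (adjusted p = 0.085), while Ikzf2 and Ctla4 were higher by 0.83 and 0.57. The genes named here were chosen after their values were seen, and the part of depth in these differences was not tested.

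The share of Cd74 among the UMIs of Cd74 and the 3 chains was compared between the classes. RNA outside of cells was not measured. In Cd79a+ cells it was 67.2% ± 1.64 (SD, n = 6 libraries) and in C1qb+ cells 68.0% ± 6.95, from 58.1% to 74.8%. In other T cells it was 69.5% ± 5.84, a difference of 2.30 percentage points from Cd79a+ cells (exact two-sided sign-flip permutation over 6 libraries, p = 0.47) and of 1.51 points from C1qb+ cells (exact p = 0.78). In Foxp3+ T cells it was 96.2% ± 2.90, from 95.5% to 98.1% in the H2-O KO mice and from 92.2% to 100% in the H2-O WT mice. That is 29.0 points above Cd79a+ cells, higher in 6 of 6 libraries (exact p = 0.03125, the smallest that 6 pairs can give, in a comparison chosen after the counts were seen). Among T cells without any UMI of B cell, macrophage or dendritic markers it was 86.7% ± 16.3, above Cd79a+ cells in 5 of 6 libraries and below them in H2-O WT replicate 3, and the difference of 19.5 points had exact permutation p = 0.0625. Where other T cells with 5 or more chain UMIs were left out, which cuts the denominator, their share was 79.9% ± 4.20.

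**Figure D3:**
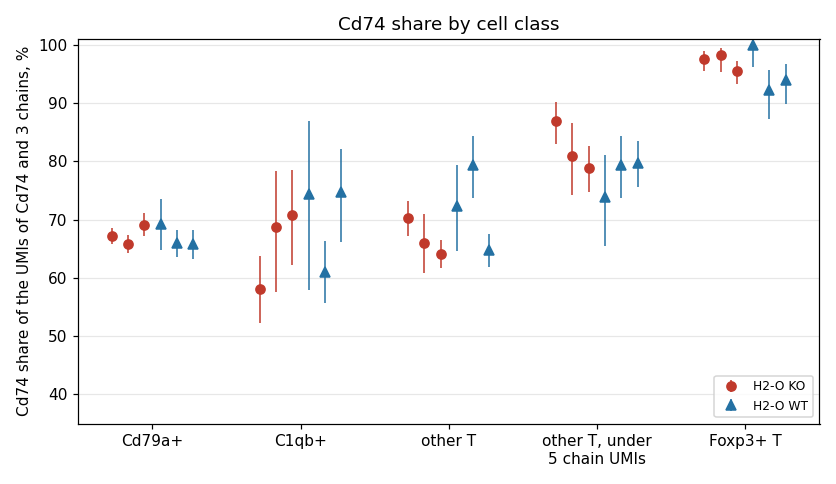
Cd74 share of the UMIs of Cd74, H2-Aa, H2-Ab1 and H2-Eb1 (percent, axis from 35) by cell class, 1 point per library (circles H2-O KO, triangles H2-O WT) with exact 95% binomial intervals that cover counting error only. Foxp3+ T cells lie at 92.2% to 100%, above every library of Cd79a+ cells (65.8% to 69.3%).

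The same count was made cell by cell. Of 551 Foxp3+ T cells with a Cd74 UMI, 528 (95.8%, exact 95% interval 93.8% to 97.3%) held no chain UMI. Other T cells with a Cd74 UMI came close to this, with 925 of 1010 (91.6%, 89.7% to 93.2%). Of the 96 Foxp3+ T cells with at least 5 Cd74 UMIs, 91 held none (94.8%, 88.3% to 98.3%). In C1qb+ cells 9 of 43 such cells held none (20.9%, 10.0% to 36.0%), and in Cd79a+ cells 0 of 103, which allows up to 3.52%. The Cd79a+ cells held a median of 92 Cd74 UMIs, whereas the highest Foxp3+ T cell held 16, so these counts are not matched for Cd74. With at least 5 Cd74 UMIs, other T cells stood between, since 18 of 52 (34.6%, 22.0% to 49.1%) held no chain UMI. These intervals cover counting error only. The 62 chain UMIs of Foxp3+ T cells would go with 127 Cd74 UMIs at the ratio of the Cd79a+ cells of each library, which is 8.53% of the 1494 found, with a range of 0% to 16.4% over libraries. For other T cells with under 5 chain UMIs the same arithmetic gave 696 of 1407 Cd74 UMIs, or 49.5%, with a range of 30.8% to 79.8%. That cut took out 1123 of the 1461 chain UMIs of other T cells, so it lowers this percentage. All other T cells together held 2950 Cd74 and 1461 chain UMIs, and Cd79a+ cells held 2.02 Cd74 UMIs per chain UMI.

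Markers of B cells did not all stay apart from Foxp3. Igkc, the kappa light chain gene, stood at 25.7 ± 16.2 CPM in Foxp3+ T cells and 1.72 ± 1.29 CPM in other T cells (SD, n = 6 libraries), and Cd79b at 17.9 ± 4.18 and 2.10 ± 0.343 CPM. Cd79a was at 0 in Foxp3+ T cells by definition, and 9 of 11 B cell markers were found there, with a summed level of 446 to 555 CPM per library against 210 to 265 CPM in other T cells, most of it Ighm. The ratio of chain UMIs to Igkc UMIs was 0.225 in Foxp3+ T cells and 8.65 in Cd79a+ cells. Against Ms4a1 UMIs it was 8.86 in Foxp3+ T cells, from 7 Ms4a1 UMIs, and 10.9 in Cd79a+ cells, so the chains stood near the ratio of Cd79a+ cells for Ms4a1 and far below it for Igkc. The part of this RNA in the Cd74 difference was not tested beyond these ratios. C1qa, a macrophage gene, was found with 6 UMIs in Foxp3+ T cells.

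Of the 26 genes of a list for class II antigen presentation, its regulators and costimulation, 25 were in the tables and 20 were tested between Foxp3+ T and other T cells. Of these, 7 were higher and 1 lower in Foxp3+ T cells, with a median log2 fold change of 0.14 against -0.02 over all genes. Cd83, which encodes a surface protein that stabilizes class II on presenting cells, was higher by 3.58 (SE 0.12, edgeR adjusted p = 1.0e-16). Cd80 and Cd86, the ligands of CD28 and CTLA-4, were higher by 3.34 and 1.53, and the endosomal proteases Ctsb, Lgmn and Ctss by 0.75, 0.52 and 0.45. Rfx5, a subunit of the factor on the X box, was higher by 0.56, and Ifi30, a lysosomal thiol reductase, fell by 0.43. The 11053 genes tested were higher in 20.7% and lower in 19.4% of cases.

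Across the 6 libraries and the 4 classes (24 sums), the gene most like Cd74 was Unc93b1 (Pearson r = 0.984 of log2 CPM), which encodes a trafficking protein of endosomal Toll-like receptors, followed by Lyn (0.968) and Irf8 (0.957). For H2-Aa they were Ly86 (0.967), Syk (0.957) and Ctsh (0.952). Within the group, H2-Aa had r = 0.994 with H2-Eb1, 0.992 with H2-Ab1 and 0.943 with Cd74, but 0.802 with H2-Eb2 and 0.737 with Ciita. These values describe 24 sums that share libraries and are set mostly by the differences between classes.

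The genotypes were compared first over all kept cells, as a library without sorting by class would show them. H2-Aa stood at 34.4, 33.9 and 42.7 CPM in the H2-O KO mice and at 14.4, 16.8 and 28.2 CPM in the H2-O WT mice. Cd74 stood at 151, 160 and 197 CPM in the H2-O KO mice and at 82.1, 80.2 and 129 CPM in the H2-O WT mice. For both genes, and for H2-Ab1 and H2-Eb1, each H2-O KO value exceeded each H2-O WT value. In such sums, more cells of a type and more RNA per cell cannot be told apart.

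Of the 6 members tested over all kept cells, 4 were called higher in H2-O KO (edgeR quasi-likelihood test), where 34.9% of all genes tested were called, 15.9% higher and 19% lower. H2-Aa rose by 0.95 (SE 0.20, adjusted p = 0.0058), H2-Ab1 by 1.02 (SE 0.24, adjusted p = 0.010), H2-Eb1 by 1.00 (SE 0.27, adjusted p = 0.019) and Cd74 by 0.87 (SE 0.17, adjusted p = 0.0041) on the log2 scale. The log2 fold change was 0.26 for H2-Eb2 and -0.11 for Ciita, with adjusted p of 0.64 and 0.88. The call of H2-Eb1 was lost without H2-O KO replicate 3 (adjusted p = 0.051), H2-O WT replicate 1 (adjusted p = 0.061) or H2-O WT replicate 2 (adjusted p = 0.054).

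This difference lay in few cells. Relative to all UMIs of the kept cells, the 3 chains summed to a mean of 84.3 CPM in the H2-O KO mice and 43.7 in the H2-O WT mice. Of the difference of 40.6, 49.2% was held by the Cd79a+ cells, 49.3% by the cells with no marker and 5.55% by other T cells, while C1qb+, Foxp3+ T and single-UMI cells stood slightly lower in H2-O KO. Cd79a+ cells held 53.6% of all chain UMIs although they were 0.356% of the kept cells. These shares rest on few libraries. Without H2-O KO replicate 3, 84.5% of the chain difference was in Cd79a+ cells and 31.1% in cells with no marker, and without H2-O KO replicate 2 the shares were 25.6% and 65.7%. In H2-O KO replicate 1, 3 cells held nearly all of the 809 chain UMIs of cells with no marker, and 1 of them held 449. For Cd74, 57.5% of the difference was in Cd79a+ cells, 39.4% in cells with no marker and 4.24% in Foxp3+ T cells. The Cd79a+ share was 94.3% without H2-O KO replicate 3 and 35.2% without H2-O KO replicate 2.

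**Figure D4:**
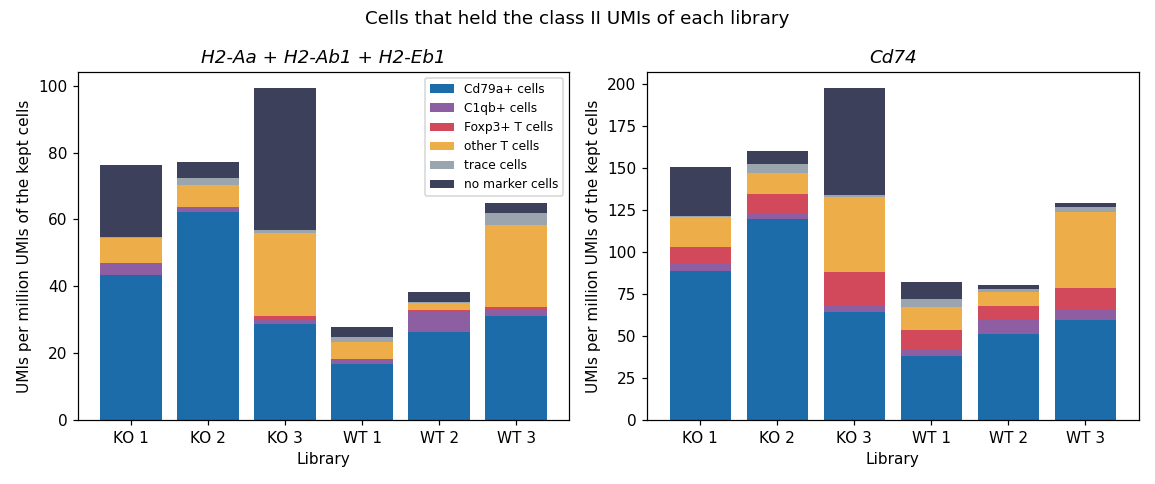
UMIs of the 3 chains (left) and of Cd74 (right) in CPM of all UMIs of the kept cells, by library, stacked by the class of cell that held them. The blue Cd79a+ part is 28.7 to 62.1 CPM for the chains in the H2-O KO mice and 16.9 to 31.0 in the H2-O WT mice, and the dark part of cells with no marker is widest in H2-O KO replicate 3 (42.4).

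Cd79a+ cells took a larger share of the kept cells in each H2-O KO mouse than in any H2-O WT mouse, but the test could not pass its threshold and the order depended on how cells were chosen. The values were 0.449%, 0.652% and 0.295% in the H2-O KO mice (35, 25 and 18 cells) and 0.159%, 0.259% and 0.248% in the H2-O WT mice (4, 12 and 12 cells). The groups did not overlap, and the difference of 0.243 percentage points had p = 0.1 in the exact two-sided permutation test, the smallest that 3 against 3 can give. With 1 UMI setting the class the difference was 0.193 points (p = 0.5), in all called cells 0.238 points (p = 0.2) and with up to 10% mitochondrial UMIs 0.249 points (p = 0.2, exact permutation tests), and the groups then overlapped. The share of C1qb+ cells was 0.333%, 0.469% and 0.524% in the H2-O KO mice and 0.476%, 0.389% and 0.392% in the H2-O WT mice, a difference of 0.0230 points (exact permutation p = 0.9). The sort removed cells with surface B220, so these shares describe cells that passed it and not the spleen.

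Within the 4 classes no member was called between the genotypes. In Cd79a+ cells, where 0.303% of 991 genes were called, the log2 fold changes were 0.04 for H2-Aa (SE 0.18), 0.11 for H2-Ab1 (SE 0.21), 0.07 for H2-Eb1 (SE 0.17) and 0.10 for Cd74 (SE 0.20), with edgeR adjusted p of 0.95 to 0.99. H2-Aa was at 4524 ± 881 CPM in the H2-O KO mice and 4444 ± 481 CPM in the H2-O WT mice (SD, n = 3 each). Relative to all RNA of the Cd79a+ cells, these 4 genes thus differed by less than the spread between mice. Where a single Cd79a UMI was enough for the class, which brings in cells with few B cell genes, H2-Aa, H2-Eb1 and Cd74 were called, with 0.70, 0.72 and 0.78 (edgeR adjusted p = 0.0095, 0.0061 and 0.00067). The median T cell marker UMIs per cell were then 0, 3 and 8 in H2-O KO replicates 1 to 3. They were 7, 15 and 3 in H2-O WT replicates 1 to 3, and the part of these T cell UMIs in the calls was not tested.

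Among other T cells, where 34.4% of 12082 genes were called (15.7% higher and 18.7% lower), the log2 fold changes of the 3 chains were 0.22 to 0.44 and that of Cd74 was 0.23 (SE 0.57, edgeR adjusted p = 0.79). Without H2-O WT replicate 3, H2-Eb1 was called with 2.39 (edgeR adjusted p = 0.0295). That library held the only 2 H2-O WT cells of this class with 10 or more chain UMIs. With cells of 5 or more chain UMIs left out, the value for Cd74 was -0.39 (adjusted p = 0.38). In Foxp3+ T cells, where 1.2% of 9357 genes were called (0.363% higher and 0.834% lower), Cd74 was the only member with enough UMIs for the test and its log2 fold change was 0.05 (SE 0.20, adjusted p = 0.92). Its level was 126 ± 39.1 CPM in the H2-O KO mice and 128 ± 32.0 CPM in the H2-O WT mice (SD, n = 3 each). After thinning, the share of Foxp3+ T cells with a Cd74 UMI was 13.0% ± 2.35 in the H2-O KO mice and 10.6% ± 1.92 in the H2-O WT mice (exact permutation p = 0.3), and over all T cells the difference was -0.109 points (exact permutation p = 0.8).

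In C1qb+ cells, where 0.159% of 627 genes were called, all 4 members tested had negative log2 fold changes, from -1.16 for H2-Eb1 to -0.81 for H2-Aa. Cd74 came nearest to a call, with -1.07 (SE 0.29, unadjusted p = 0.0018, edgeR adjusted p = 0.074), and its libraries overlapped between the genotypes. It was called where a single C1qb UMI was enough (-1.12, adjusted p = 0.018) and where all called cells were used (-1.32, adjusted p = 0.031). The T cell markers summed to 3006 to 3426 CPM in H2-O KO and 1333 to 2609 CPM in H2-O WT in these cells, and C1qa stood at 1141 ± 237 and 1698 ± 441 CPM (SD, n = 3 each). Without the cells that held 2 or more T cell marker UMIs, the log2 ratio of the mean levels was 0.45 for H2-Aa and 0.12 for H2-Ab1. It was -0.04 for H2-Eb1 and -0.09 for Cd74. The sign thus turned for H2-Aa and H2-Ab1, but the spread between mice was wide. H2-Aa then stood at 2224 ± 2320 CPM in H2-O KO and 1630 ± 2106 CPM in H2-O WT (SD, n = 3 each).

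The cells with no marker were few in H2-O KO (33, 31 and 120 cells) and more in H2-O WT (280, 146 and 349 cells). H2-Aa stood at 4661, 865 and 2470.5 CPM in the first and at 48.3, 149 and 67.8 CPM in the second, and Cd74 at 14666, 2855 and 8787 CPM against 264, 273 and 83.7 CPM. Each H2-O KO value exceeded each H2-O WT value for both genes (exact permutation p = 0.1, the smallest possible). The RNA lay in few cells, 20 of which held 10 or more chain UMIs, and the share of cells with less than 10% ribosomal protein UMIs was 45.5% to 60.8% in H2-O KO and 73.9% to 88.4% in H2-O WT. Its part in this difference was not tested.

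**Figure D5:**
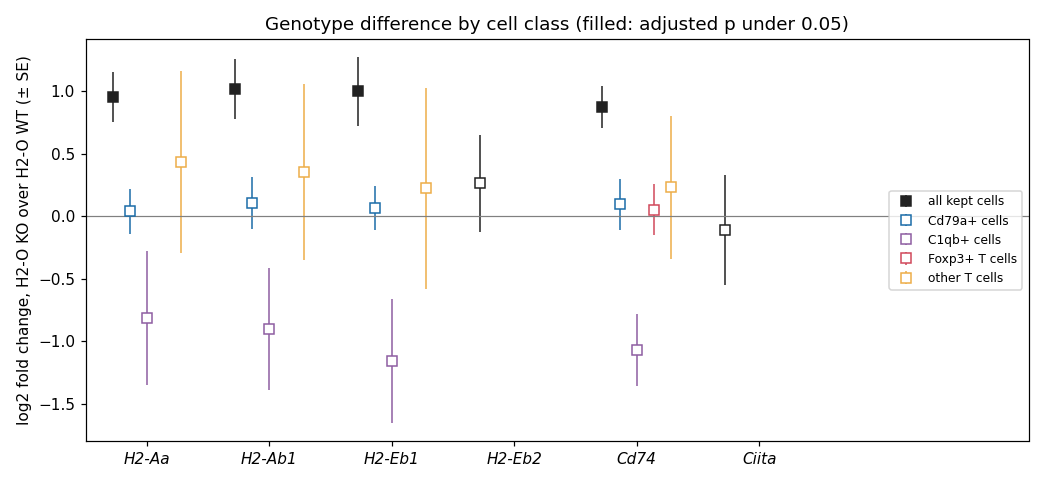
Log2 fold change of H2-O KO over H2-O WT with its SE (vertical axis) for each of the 6 genes (horizontal axis) over all kept cells and within each class, from edgeR. Filled squares have an adjusted p under 0.05. Over all kept cells H2-Aa, H2-Ab1, H2-Eb1 and Cd74 lie at 0.87 to 1.02, while within Cd79a+ cells they lie at 0.04 to 0.11.

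Whether the genotype difference in other T cells was unlike that in Cd79a+ cells was tested as an interaction over both sets of sums. No member was called in edgeR, where 0.078% of 10257 genes were called (0.0195% higher and 0.0585% lower), no member had an unadjusted p under 0.05, and DESeq2 called none either. In DESeq2 the interaction for H2-Aa was 0.53 on the log2 scale with an SE of 1.07, so differences of about that size could not be seen. Without H2-O WT replicate 3, H2-Aa and H2-Eb1 were called in edgeR, with 1.45 and 1.71 (adjusted p = 0.00071 and 0.00075). Leaving out this library also removes the only 2 H2-O WT other T cells with 10 or more chain UMIs. The ratio of the H2-Aa level in other T cells to that in Cd79a+ cells of the same library differed by 0.75 on the log2 scale between the genotypes (exact permutation p = 0.5).

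The other genes of antigen presentation were read in the same fits. Over all kept cells, 9 of 24 list genes tested were higher and 4 lower in H2-O KO, with a median log2 fold change of 0.22 against 0.01 over all genes. H2-DMb1 and H2-DMa, which encode chains of the peptide editor H2-DM, were higher by 1.36 and 0.62, H2-Ob by 0.60, H2-DMb2 by 0.60 and Ifi30 by 0.54. H2-Oa, the targeted gene, fell by 0.68. For other T cells 7 of 22 were higher and 3 lower, led by H2-DMa (0.62) and H2-Ob (0.54). Within Cd79a+ cells, 1 of 7 list genes tested was called, and that was H2-Oa, which fell by 3.07, and in Foxp3+ T cells 1 of 20, H2-Oa again, which fell by 3.29. These counts stand against 34.9% of all genes called over all kept cells and 34.4% in other T cells, and the share of cells with little ribosomal protein RNA moved with genotype in the same sums. Its part in these calls was not tested.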

How the data were processed

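Single-cell RNA of splenic CD4 T cells was measured by 10x Genomics 5' sequencing in 3 mice of the H2-O KO and 3 of the H2-O WT genotype. The deposited values are whole-number UMI counts per gene and called cell, which the authors made with Cell Ranger 6.1.2 on mm10 and did not normalize. All other values were calculated from these counts.

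Cells were kept by the paper's limits (at least 200 genes, at most 12000 UMIs, at most 5% mitochondrial UMIs), and no doublet caller was run beside the upper limit on UMIs. UMIs were summed per library and class and tested over all genes with edgeR 4.0.16 (quasi-likelihood test, TMM normalization, default low-count filter, Benjamini-Hochberg adjustment, threshold 0.05) under R 4.3.3, with DESeq2 1.42.0 as an alternative. The fits were tested on simulated data. Shares and ratios per library were compared with exact two-sided permutation tests. The precision is set by 3 mice per genotype and, for Cd79a+ and C1qb+ cells, by 4 to 35 cells per library. Intervals are exact Clopper-Pearson at 95%, and a count of 0 allows 3 counts.

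The members, the marker lists and the antigen presentation list were chosen with earlier results of these data known. The genes named include the 6 members and the 3 genes most like Cd74 and H2-Aa over sums of at least 50 UMIs. Of the antigen presentation list, up to 6 genes with the largest called changes are named for each comparison. Between Foxp3+ T and other T cells all called list genes are named. Genes of the Cd74 split of Foxp3+ T cells were chosen after their values were seen, and some with larger changes are not named. Markers are named to describe the classes. H2-Ea of the list was not analysed here.

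Alternatives covered the number of UMIs that sets a class, all called cells, a mitochondrial limit of 10%, T cells with at least 10% ribosomal protein UMIs, T cells without UMIs of B cell, macrophage or dendritic markers, normalization, filters, thinning depth, the replicate number as a block and leaving out each library. T cells with under 5 chain UMIs, the same strict T cells without the condition on Ighm, the Cd74 share of Foxp3+ T cells, and the split of the genotype difference by class without each library were added after the counts were seen.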

Additional observations from a re-analysis of the deposited data

Results flagged for a closer look

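Class II RNA was also found in cells that none of the 4 classes holds. Of the 959 kept cells without a UMI of Cd79a, C1qb or the 7 T cell markers, 20 held 10 or more UMIs of H2-Aa, H2-Ab1 and H2-Eb1, and together 96.8% of the class's chain UMIs. They lay in every library, with 3, 4 and 8 cells in H2-O KO and 1, 2 and 2 cells in H2-O WT. Of 11 B cell markers 9 were found in these cells, 13 cells held a UMI of them and 4 held 5 or more. Cd79b was found in 4 cells and Ms4a1 in none, while Bst2 was found in 8, Flt3 in 6, Lyz2 in 6, Itgax in 5, Ccr7 in 2 and Siglech in 1. Flt3 and Itgax are genes of dendritic cells and Lyz2 of myeloid cells. By whole lists, 6 of the 20 cells held 5 or more UMIs of conventional dendritic cell markers and 5 held none. For plasmacytoid dendritic cell markers these counts were 3 and 11, and for monocyte markers 7 and 11.

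Among the 418 cells left out for more than 12000 UMIs, 11 held 10 or more chain UMIs (2.63%), against 130 of the kept cells (0.437%). Of the 11, 5 also held at least 2 T cell marker UMIs. They were 5, 2 and 1 cells in H2-O KO and 0, 2 and 1 cells in H2-O WT.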

How the results depend on the processing

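Over all kept cells 3 to 4 members were called when 1 library was left out, and 4 under every other alternative run. Of the members with enough UMIs for the test, 0 were called between the genotypes in Foxp3+ T, Cd79a+ and C1qb+ cells whichever library was left out. In the main test, Cd74 alone was tested in Foxp3+ T cells and 4 members in C1qb+ cells. Of all genes tested there, 1.2%, 0.303% and 0.159% were called in Foxp3+ T, Cd79a+ and C1qb+ cells. In other T cells 0 to 1 members were called, with H2-Eb1 called without H2-O WT replicate 3 (2.39, edgeR adjusted p = 0.0295). Among all called cells, 3 members were called in other T cells, 1 in C1qb+ cells and 4 in the interaction, where Cd74 changed sign to 1.03 (adjusted p = 0.00023), and the cause was not tested. With 1 UMI setting a class, 3 were called in Cd79a+ cells, 1 in C1qb+ cells and 1 in the interaction. Without the low-count filter, 1 was called in Cd79a+ cells (Cd74, 0.45). In the interaction 0 to 2 were called with 1 library left out, the 2 being H2-Aa and H2-Eb1 without H2-O WT replicate 3.

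T cells without any UMI of B cell, macrophage or dendritic markers gave 1 call in Foxp3+ T cells between the genotypes (Cd74, 1.16, adjusted p = 0.019), whereas without the condition on Ighm the value was -0.01 (adjusted p = 0.996), and the cause was not tested. Between Foxp3+ T and other T cells 4 members were called in the main test, 1 (Cd74) in the strict T cells with and without the condition on Ighm, where H2-Aa changed sign to 0.94 and 0.22, and 2 (H2-Eb1 and Cd74) in DESeq2. Leaving out 1 library gave 2 to 4.

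Whether the replicate numbers pair the libraries was not settled. The correlation of deviations between same-numbered libraries was -0.134, 0.161 and 0.451 in other T cells. Replicates 2 and 3 correlated best with their own number there, and replicate 1 did not. With the replicate block, 2 members were called in other T cells (H2-Aa 0.67, adjusted p = 0.048, and Cd74 0.35, adjusted p = 0.020), against 0 without it. It changed no other count, and the share of Cd79a+ cells had p = 0.25, the smallest of 3 pairs, in the exact permutation test.

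The share of Cd79a+ cells was higher in H2-O KO by 0.150 to 0.328 points with 1 library left out, and its groups overlapped with 1 UMI setting the class (p = 0.5), in all called cells (p = 0.2) and at 10% mitochondrial UMIs (p = 0.2), in exact permutation tests. The difference in the share of C1qb+ cells was -0.0178 to 0.0775 points, -0.0564 with 1 UMI and -0.0150 with 3 UMIs setting the class. That in the share of T cells with a Cd74 UMI was -0.594 to 0.457 points, 0.118 in all called cells, 0.120 at 3000 UMIs and 0.350 without thinning. The H2-Aa ratio differed by -0.0672 to 1.62, and by -0.532 in strict T cells. The Cd74 share of other T cells stood above Cd79a+ cells by 0.0595 to 3.76 points, and by -0.769 in all called cells. In T cells with under 5 chain UMIs the difference was 12.8 points, given with no test since the cut lowers the denominator. Against C1qb+ cells the Cd74 share of other T cells stood at -1.86 to 3.83 points, and at -2.11 in all called cells. That of Foxp3+ T cells stood above Cd79a+ cells by 28.4 to 29.6 points with 1 library left out (exact permutation p = 0.0625, the smallest of 5 pairs), and by 19.5 in strict T cells (exact permutation p = 0.0625), where 1 of 6 libraries went the other way. Few Cd79a+ and C1qb+ cells per library limit what could be seen within them.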
